A study of Saccharomyces cerevisiae with 4 samples.

Results

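The genes described here code for most of the cytosolic tRNA synthetases and for initiation, elongation and release factors of budding yeast (Saccharomyces cerevisiae). They were taken by gene symbol from the probe annotation of the array, from a list of 53 symbols, with 1 value per gene. Of these, 51 have a probe set named for them, out of 5430 genes in the comparisons, and each has 1 probe set. TIF1 and EFT1 have none and are not analysed here. The list does not hold every such gene. The arginyl and prolyl synthetases and the elongation factor eEF1A, among others, are outside it, and some of these are read at the end.

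A tRNA synthetase joins an amino acid to its tRNA, so that the cell needs an enzyme for each amino acid. Initiation factors (eIFs) bring the initiator tRNA, the small ribosomal subunit and the mRNA together at the start codon. Elongation factors deliver charged tRNAs and move the ribosome along, and release factors end the chain at a stop codon. In yeast, the genes for this machinery are known to be among those lowered when cells meet heat and other stresses, together with the genes of the ribosome.

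The study put 4 samples of total RNA on Affymetrix expression arrays, 1 array for each of 4 groups in a design of 2 strains by 2 temperatures. The parent strain was BY4741, with the markers his3Δ1, leu2Δ0, met15Δ0 and ura3Δ0. The second strain is labelled BY4741hsp30Δ::kanMX, a deletion of HSP30 made in BY4741, and the sources used here do not say how many clones it stands for. Cells of both strains were in log phase in the rich medium YPD at 30 °C, and were sampled there (unheated) or after 30 min at 40 °C (heated). The stated purpose was to find genes whose expression differs between the deletion strain and its control.

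No group has a replicate, so a difference between 2 arrays has no test and no error. Such differences are given as log2 differences or folds, with 2-fold as the limit for counting. Culture, extraction and array cannot be told apart from strain and temperature. The arrays read a gene's share of the RNA, and fewer transcripts in each cell cannot be told apart from more RNA of other genes.

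Before any strain direction is given, the label has to be set beside the signal of HSP30. HSP30, which codes for a plasma membrane heat shock protein, read 15.51 and 14.18 log2 units on unheated and heated BY4741, and 15.18 and 15.91 on the arrays whose label says hsp30Δ, unheated and heated. MET17, the gene that carries the met15Δ0 deletion, read 1.95 on every array, at the bottom of the scale. The signal of HSP30 thus goes against the label, and where its probes lie was not checked here. The second strain is therefore called hsp30Δ-labelled throughout. Where 4 values follow each other, they are in the order unheated BY4741, heated BY4741, unheated hsp30Δ-labelled and heated hsp30Δ-labelled. All 51 genes were above background on all 4 arrays, and their values lay between 8.98 and 15.56.

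The plainest feature of the 51 genes was a high value on the unheated BY4741 array. That array held the highest of the 4 values for 46 of the 51 genes, against 34.7% of all 5430 genes. The exceptions were DED1, SUI1 and EFB1, highest on the unheated hsp30Δ-labelled array, and GLN4 and TIF4632, highest on the heated hsp30Δ-labelled array. The lowest value was on the unheated hsp30Δ-labelled array for 37 genes, on heated BY4741 for 13 and on the heated hsp30Δ-labelled array for 1, CDC33. Over all genes these shares were 25.5%, 19.1% and 12.2%. Unheated BY4741 held the lowest value for 43.2% of all genes, and for 0 of the 51. On the other 3 arrays most of these genes lay close together, as most genes of the array did. The 3 values spanned less than 1 log2 unit for 46 of 51 genes, against 80.7% of all genes. The median span was 0.59 log2 units, against 0.58 over all genes. The wider ones of the 51 were DED1 (1.70 log2 units), FRS1 (1.15), TIF3 (1.14), GRS1 (1.07) and SES1 (1.05).

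All 51 genes read lower on heated than on unheated BY4741, where 2442 of all 5430 genes did. At least 2-fold lower were 32 of 51, where the share among all 5430 genes was 18.8%. At least 2-fold higher were 0 of 51, against 18.9% of all genes. The median difference was -1.24 log2 units, against 0.13 over all genes. The synthetases had the lowest median, -1.72, with 17 of 19 genes at least 2-fold lower (ARC1 included), while 12 of 25 initiation factor genes (median -0.95) and 3 of 7 elongation and release factor genes (median -0.90) were that much lower.

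On the hsp30Δ-labelled arrays the same comparison ran the other way, and was small. Of the 51 genes, 45 were higher on the heated array and 6 lower (46 and 5 under quantile normalization or median centring). Of all 5430 genes, 2783 were higher and 2639 lower. The median of the 51 was 0.44 log2 units, against 0.01 over all genes. Only FRS1 and SES1 were at least 2-fold higher (2 of 51, with 1.62% among all genes) and 0 were at least 2-fold lower (1.57% among all genes). Since all 51 genes were lower with heat in BY4741, the 45 genes that were higher here necessarily had opposite signs in the 2 comparisons. Lower in BY4741 and higher here were 26.6% of all genes. The 2 heat comparisons share no array, but the difference between them was not tested. As a value, heat in the hsp30Δ-labelled strain minus heat in BY4741 was at least 2-fold upward for 40 of 51 genes, against 21.7% of all genes, and that far downward for 0, against 22.6%. Its median of 1.69 log2 units mostly restates the BY4741 values.

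**Figure D1:**
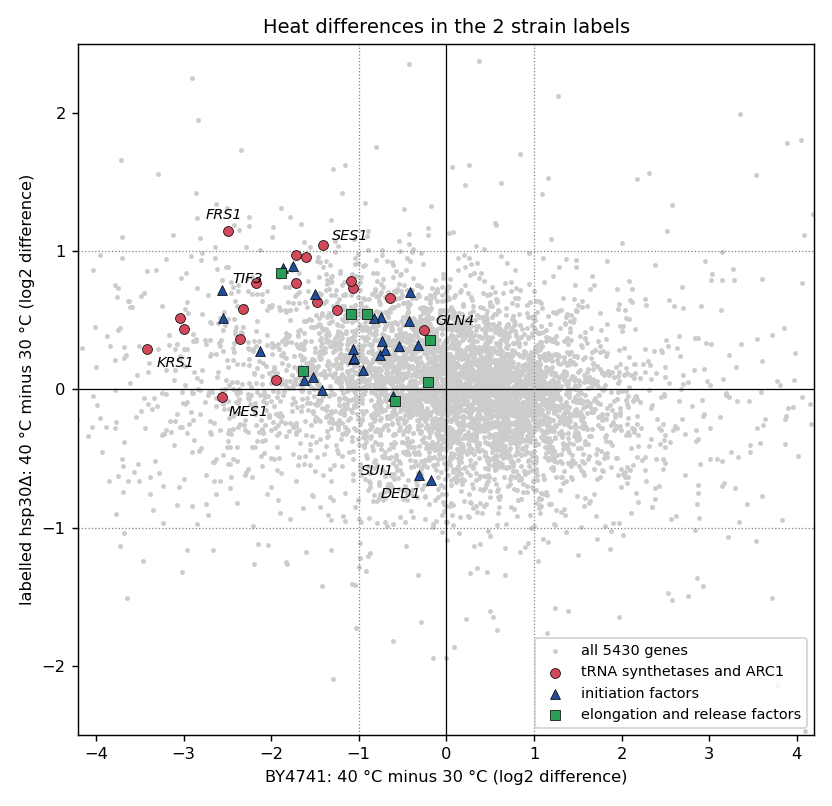
Heat difference of each gene in BY4741 (horizontal, log2) against that on the hsp30Δ-labelled arrays (vertical, log2), 1 array per group. Coloured symbols are the 51 genes by role, grey points all 5430 genes (those outside the frame are not drawn), and dotted lines mark 2-fold. Every coloured symbol lies left of 0, 45 of 51 lie above 0, and FRS1 and SES1 alone lie past the upper 2-fold line.

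Without heat, 48 of the 51 genes read lower in the hsp30Δ-labelled strain than in BY4741, where 2513 of all 5430 genes did. At least 2-fold lower were 39 of 51, where the share among all genes was 21.4%, and 1, DED1, was at least 2-fold higher, against 23.2%. The median was -1.70 log2 units, against 0.11 over all genes. By role, 18 of 19 synthetase genes (median -2.09), 17 of 25 initiation factor genes (median -1.42) and 4 of 7 elongation and release factor genes (median -1.18) were at least 2-fold lower. Heat in BY4741 and the strain label without heat both subtract the unheated BY4741 array, so neither stands as separate support of the other.

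At 40 °C the strain labels were close. The median difference was 0.17 log2 units, against 0.00 over all genes. Of the 51 genes, 37 were higher in the hsp30Δ-labelled strain and 14 lower (35 and 16 under median centring). Of all 5430 genes, 2730 were higher and 2694 lower. DED1 was the 1 gene at least 2-fold higher (1 of 51, with 6.7% among all genes), and 0 were at least 2-fold lower (3.59% among all genes). By role, 18 of 19 synthetase genes were higher on the hsp30Δ-labelled array (median 0.32), as were 6 of 7 elongation and release factor genes (median 0.11). Of the 25 initiation factor genes, 13 were higher and 12 lower (median 0.00). No test of the contrast between roles was made.

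**Figure D2:**
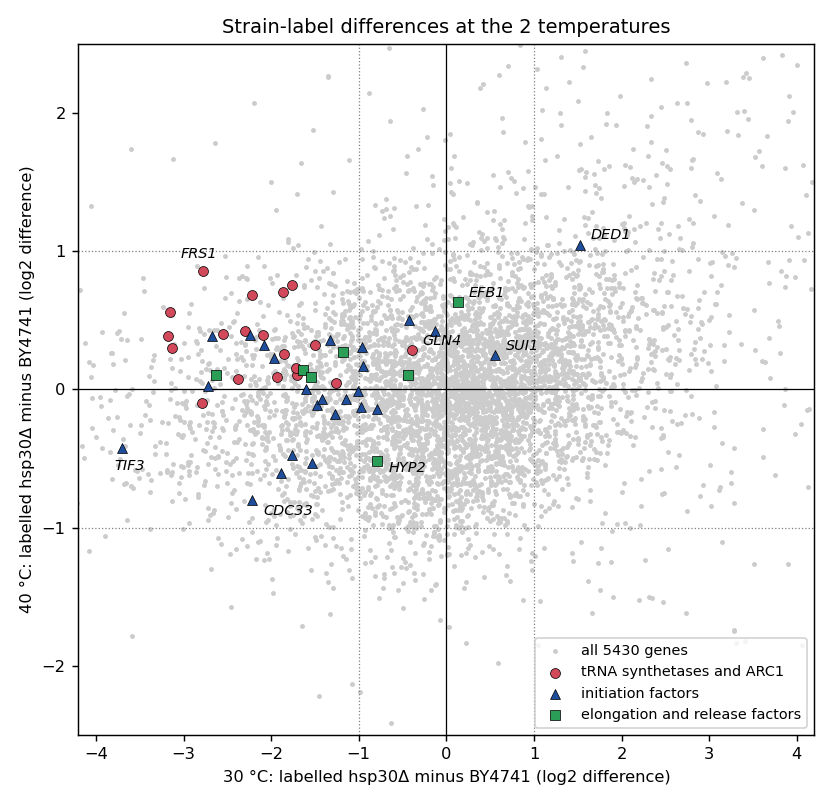
Difference between the strain labels at 30 °C (horizontal, log2) and at 40 °C (vertical, log2), labelled hsp30Δ minus BY4741, 1 array per group. Symbols are as in the plot of heat differences, and genes outside the frame are not drawn. DED1 is alone past 2-fold at both temperatures, TIF3 lies farthest left (-3.71) and CDC33 lowest (-0.80) among the 51 genes.

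The 19 genes of the synthetase group hold 18 subunits or enzymes and ARC1, which codes for a tRNA-binding partner of the glutamyl and methionyl enzymes. KRS1, the lysyl-tRNA synthetase, read 14.43, 11.01, 11.28 and 11.57. It was thus high on 1 array and within 0.56 log2 units on the other 3, and its heat difference in BY4741 was the lowest of the 51 genes, 10.7-fold.

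WRS1, the tryptophanyl enzyme, read 12.91, 9.86, 9.73 and 10.25, so that it was 8.25-fold lower with heat in BY4741 and 9.03-fold lower for the strain label without heat. CDC60, the leucyl enzyme, read 13.92 and 10.92 on BY4741 and 10.79 and 11.22 on the hsp30Δ-labelled arrays. Its folds against unheated BY4741 were 7.96 for heat and 8.75 for the strain label. These 3 genes lay more than 1 log2 unit below the median of the synthetase group in both comparisons.

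GLN4, the glutaminyl enzyme, stood at the other end. It read 13.00 and 12.75 on BY4741 and 12.60 and 13.03 on the hsp30Δ-labelled arrays, a span of 0.43 log2 units over the 4 arrays, and its heat difference in BY4741 (-0.25) lay 1.47 log2 units above the median of the group. DPS1, the aspartyl enzyme, read 14.65 and 14.00 on BY4741 and 13.38 and 14.04 on the hsp30Δ-labelled arrays. It was 1.57-fold lower with heat in BY4741 and, unlike GLN4, past 2-fold between the strain labels at 30 °C (2.40-fold). GUS1, the glutamyl enzyme, read 14.80, 13.73, 13.10 and 13.84, and HTS1, the histidyl enzyme, 13.74, 12.50, 12.25 and 12.82. Both were past 2-fold for heat in BY4741 and for the strain label without heat.

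**Figure D3:**
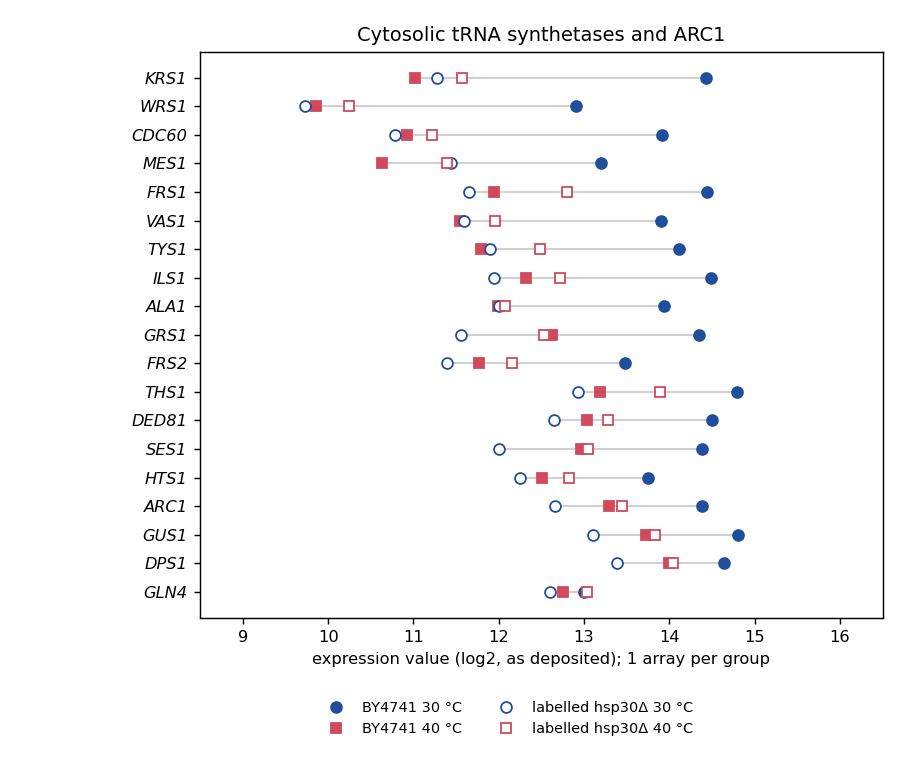
Log2 expression values of the 19 synthetase group genes on the 4 arrays, 1 symbol per array, ordered from the lowest to the highest heat difference in BY4741. The filled circle of unheated BY4741 is the rightmost symbol for every gene but GLN4, and the open circle of the unheated hsp30Δ-labelled array is leftmost for 14 of 19.

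FRS1 and FRS2 code for the 2 subunits of the phenylalanyl enzyme. FRS1 read 14.44 and 11.94 on BY4741 and 11.65 and 12.80 on the hsp30Δ-labelled arrays, while FRS2 read 13.48 and 11.77, and 11.39 and 12.16. Both subunits had the same order of the 4 arrays. FRS1 had the larger difference each time, 5.64-fold against 3.29-fold for heat in BY4741 and 2.21-fold against 1.70-fold, upward, on the hsp30Δ-labelled arrays.

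The Arc1 complex joins ARC1 with GUS1 and MES1, the methionyl enzyme, and its 3 genes had unequal differences. ARC1 read 14.38 and 13.29 on BY4741 and 12.66 and 13.44 on the hsp30Δ-labelled arrays, 2.13-fold lower with heat in BY4741, close to the 2.10-fold of GUS1. MES1 read 13.20 and 10.64, and 11.44 and 11.39. It was 5.92-fold lower with heat in BY4741, and was the 1 synthetase gene that was not higher with heat in the hsp30Δ-labelled strain (-0.05).

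SES1, the seryl enzyme, read 14.38 and 12.97 on BY4741 and 12.00 and 13.04 on the hsp30Δ-labelled arrays. Its lowest value was thus on the unheated hsp30Δ-labelled array, and the heated arrays of both strains differed by 0.08 log2 units. GRS1, the glycyl enzyme, also had its lowest value on the unheated hsp30Δ-labelled array. It read 14.35 and 12.63 on BY4741, and 11.56 and 12.53 on the hsp30Δ-labelled arrays. The strain labels were 6.90-fold apart for GRS1 at 30 °C and 1.07-fold at 40 °C. GRS1 was the 1 synthetase gene that was lower on the heated hsp30Δ-labelled array (-0.10).

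The other 6 synthetase genes lay between these. Their heat differences in BY4741 were -1.47 for DED81 (asparaginyl), -1.61 for THS1 (threonyl), -1.95 for ALA1 (alanyl), -2.18 for ILS1 (isoleucyl), -2.32 for TYS1 (tyrosyl) and -2.35 for VAS1 (valyl), all past 2-fold. On the hsp30Δ-labelled arrays the heat differences of these 6 ran from 0.07 for ALA1 to 0.96 for THS1. ALA1, GRS1, HTS1 and VAS1 each code for both the cytosolic and the mitochondrial form of their enzyme, and all of them were at least 2-fold lower for heat in BY4741.

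Among the initiation factors, eIF2 carries the initiator tRNA to the ribosome and eIF2B recharges it with GTP. SUI2, SUI3 and GCD11 code for the 3 subunits of eIF2. SUI2 read 13.67 and 12.60 on BY4741 and 11.91 and 12.13 on the hsp30Δ-labelled arrays, and GCD11 read 13.96 and 12.44, and 12.35 and 12.44. Both were at least 2-fold below unheated BY4741 on each of the other arrays. SUI3 read 13.26, 12.65, 13.12 and 13.07, so that without heat its difference between strain labels was -0.13, 1.47 log2 units above the median of its complex.

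Of the 5 eIF2B subunit genes, GCN3 differed most. GCN3, the regulatory alpha subunit, read 12.78 and 10.24 on BY4741 and 10.11 and 10.63 on the hsp30Δ-labelled arrays, 5.83-fold lower with heat in BY4741, against a complex median of -1.07 log2 units. GCD6 was 3.08-fold and GCD2 2.10-fold lower, and GCD7 and GCD1 had heat differences of -0.83 and -0.75. All 5 were higher with heat in the hsp30Δ-labelled strain, by 0.06 (GCD6) to 0.52 log2 units (GCD1), and 4 of 5 were at least 2-fold lower for the strain label without heat.

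Factor eIF3 is a scaffold on the small subunit, and all 6 of its genes had their highest value on unheated BY4741 and their lowest on the unheated hsp30Δ-labelled array. PRT1 read 13.45 and 11.58 on BY4741 and 10.72 and 11.60 on the hsp30Δ-labelled arrays, 3.66-fold lower with heat in BY4741 and 6.60-fold lower for the strain label without heat. NIP1 (-1.74 for heat in BY4741), RPG1 (-1.50) and TIF35 (-1.05) were past 2-fold as well, and HCR1 (-0.95), a substoichiometric subunit, was not. TIF34 read 14.03, 13.70, 13.24 and 13.57 and had the smallest differences of the 6 for heat in BY4741 (-0.33) and for the strain label without heat (-0.79).

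**Figure D4:**
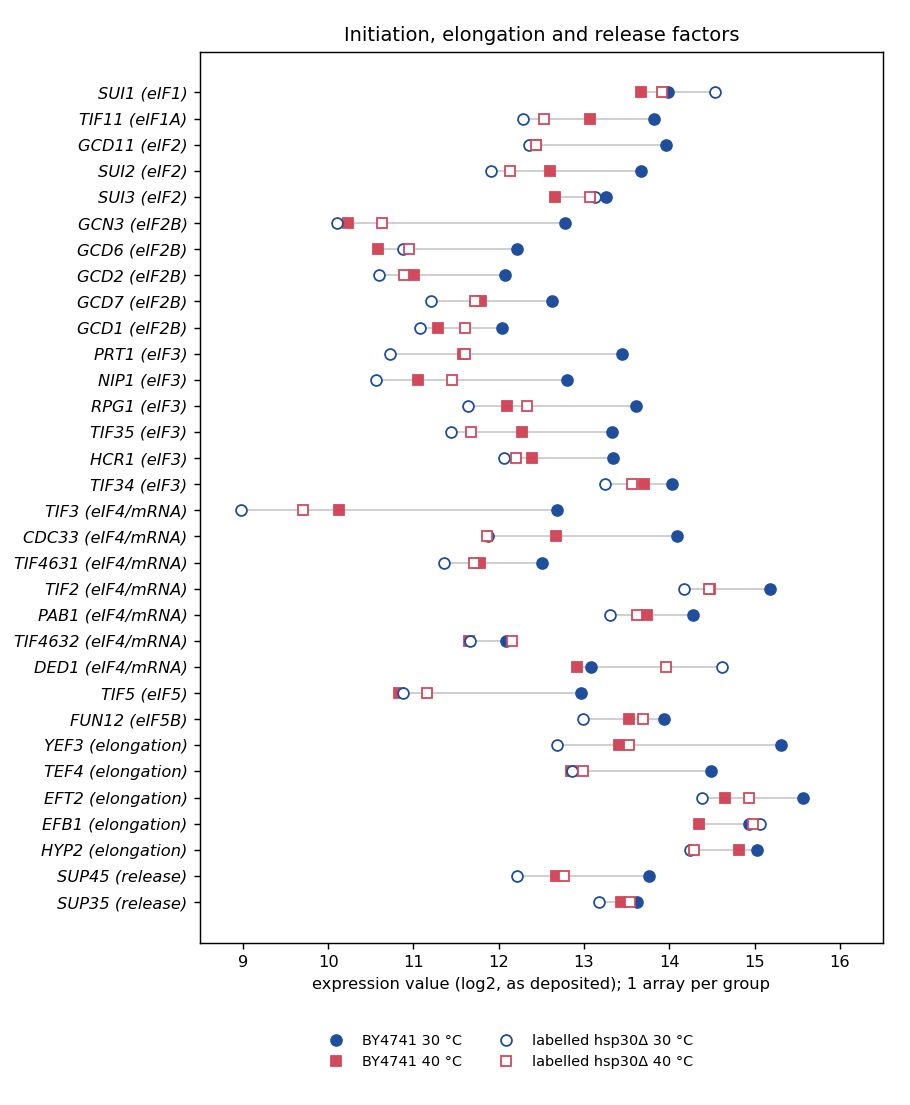
Log2 expression values of the 32 initiation, elongation and release factor genes on the 4 arrays, 1 symbol per array, grouped by complex and, within each, ordered by the heat difference in BY4741. The filled circle of unheated BY4741 is rightmost for 28 of 32 genes; DED1, SUI1, EFB1 and TIF4632 are the others.

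The factors that bind mRNA and its cap hold both the lowest and the highest strain difference of the 51 genes without heat, TIF3 and DED1. TIF3, which codes for eIF4B, a partner of the helicase eIF4A, read 12.69 and 10.12 on BY4741 and 8.98 and 9.70 on the hsp30Δ-labelled arrays. It was 5.91-fold lower with heat in BY4741 and 13.1-fold lower for the strain label without heat, the lowest strain difference of the 51 genes. CDC33, the cap-binding protein eIF4E, read 14.08 and 12.67, and 11.87 on both arrays labelled hsp30Δ. It was lower on the hsp30Δ-labelled arrays at both temperatures, by 4.65-fold at 30 °C and 1.74-fold at 40 °C.

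DED1 codes for a DEAD-box RNA helicase that helps the ribosome scan structured leaders, and it was the 1 gene of the 51 at least 2-fold higher between the strain labels at either temperature. It read 13.09 and 12.91 on BY4741 and 14.61 and 13.96 on the hsp30Δ-labelled arrays. The arrays labelled hsp30Δ were both above both BY4741 arrays, by 2.88-fold at 30 °C and 2.07-fold at 40 °C, and DED1 was lower at 40 °C under either label (-0.17 and -0.65). SUI1, which codes for eIF1, a guard of start codon choice, read 13.99, 13.67, 14.54 and 13.92. Its highest value was on the unheated hsp30Δ-labelled array too, but it was within 2-fold in every comparison.

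The scaffold eIF4G is coded by a pair of genes. TIF4631 read 12.51, 11.78, 11.36 and 11.71, and was past 2-fold only for the strain label at 30 °C (2.22-fold). TIF4632 read 12.08, 11.65, 11.66 and 12.15, and was within 2-fold in every comparison. PAB1, the poly(A)-binding protein, read 14.28, 13.74, 13.30 and 13.62, and its largest fold was 1.97, between the strain labels at 30 °C.

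TIF1 and TIF2 are a gene pair for the same eIF4A protein. The probe set annotated to TIF2 carries a suffix for shared sequence, so it may read both genes. It gave 15.18, 14.48, 14.17 and 14.46, with 2.01-fold between the strain labels at 30 °C. The remaining initiation factors were TIF5 (eIF5, which triggers GTP hydrolysis by eIF2), TIF11 (eIF1A) and FUN12 (eIF5B, which joins the subunits). TIF5 read 12.96, 10.83, 10.88 and 11.16, and was 4.36-fold lower with heat in BY4741. TIF11 was 1.69-fold lower there and 2.90-fold lower for the strain label without heat, and FUN12 had differences of -0.42 and -0.95 in these comparisons.

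**Figure D5:**
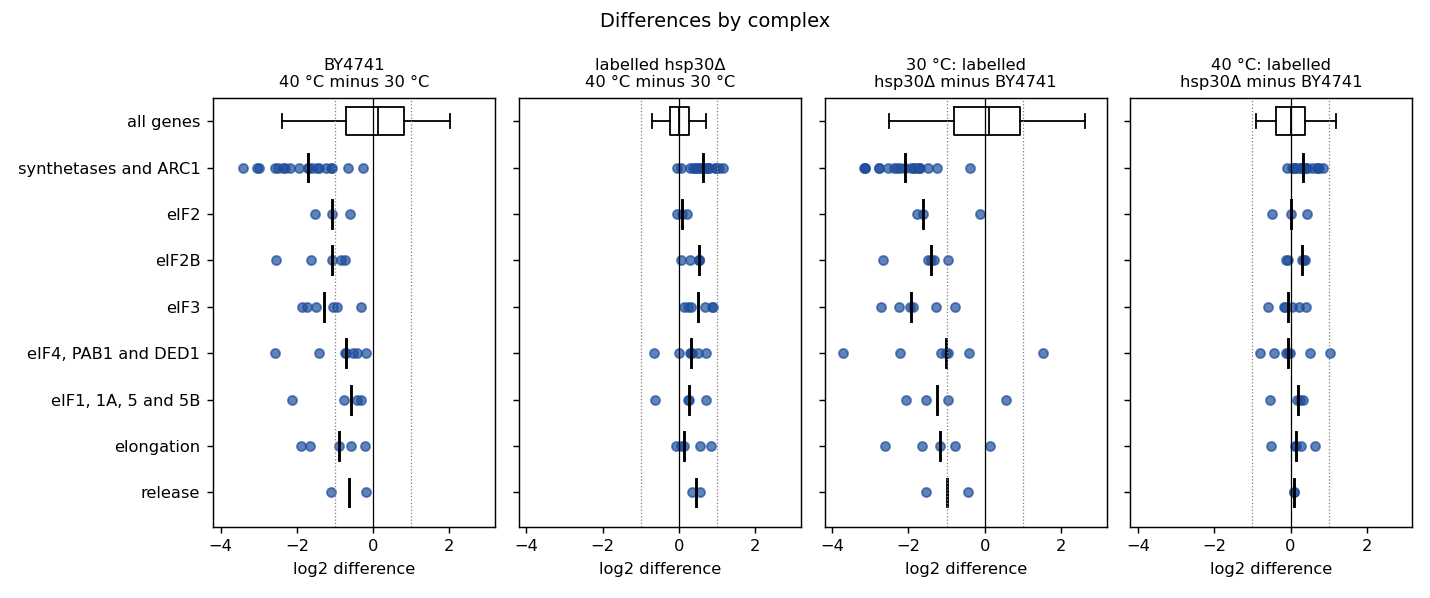
Log2 differences of the 51 genes by complex in the 4 comparisons, 1 point per gene with a bar at the median. The box shows all 5430 genes from the 25th to the 75th percentile with whiskers to the 5th and 95th, and dotted lines mark 2-fold. The points lie left of 0 in the first panel without exception, and mostly within the 2-fold lines in the second and the fourth.

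EFT1 and EFT2 are a gene pair for the same protein, eEF2, which moves the ribosome by a codon. The probe set annotated to EFT2, which also carries a suffix for shared sequence, read 15.56 and 14.66 on BY4741 and 14.38 and 14.93 on the hsp30Δ-labelled arrays. It was the only one of the 51 within 0.5 log2 units of the highest value of an array, 16.01 on unheated BY4741.

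YEF3, the fungal elongation factor eEF3, read 15.30 and 13.41 on BY4741 and 12.68 and 13.52 on the hsp30Δ-labelled arrays, 3.71-fold lower with heat in BY4741 and 6.17-fold lower for the strain label without heat. EFB1 and TEF4 code for the alpha and a gamma subunit of eEF1B, the exchange factor that recharges eEF1A, and these genes parted. TEF4 read 14.49, 12.85, 12.86 and 12.99, while EFB1 read 14.93, 14.35, 15.06 and 14.98. TEF4 was 3.12-fold lower for heat in BY4741 and 3.10-fold lower for the strain label without heat. EFB1 was within 2-fold in every comparison, with its lowest value on heated BY4741.

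HYP2, which codes for eIF5A, read 15.02 and 14.81 on BY4741 and 14.24 and 14.29 on the hsp30Δ-labelled arrays. Its values followed the strain label more than the temperature, with differences of -0.79 at 30 °C and -0.52 at 40 °C, both within 2-fold. The release factors form a complex of SUP45 (eRF1), which reads the stop codon, and SUP35 (eRF3), its GTPase. SUP45 read 13.76, 12.67, 12.22 and 12.76, 2.13-fold lower with heat in BY4741, while SUP35 read 13.62, 13.43, 13.18 and 13.54 and was within 2-fold in every comparison.

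The one test the design allows looks for a heat difference common to the 2 strain labels, or a strain difference common to the 2 temperatures, in an additive limma fit with 1 residual degree of freedom per gene. For heat, 0 of the 51 genes passed (smallest limma adjusted p 0.998), and 0 had an unadjusted p under 0.05 (1.05% of all genes were lower and 0.958% higher at that p). For the strain label, 0 of 51 passed (smallest limma adjusted p 0.603), where 11 of all 5430 genes did, 0.203%, all upward. That count was 0 under median centring or with no filter on dim genes, and was 80 higher and 30 lower under quantile normalization. TIF3 (-2.07 log2 units, standard error 0.84) and CDC33 (-1.51, standard error 0.63) were lower at an unadjusted limma p of 0.0434 and 0.0467, 2 of 51 genes where 2.58% of all genes were lower; 0 of 51 were higher at that p, where 5.62% of all genes were. With no filter on dim genes 0 of 51 were lower at that p, and under quantile normalization 1 was higher. TIF3 and CDC33 were lower at both temperatures. DED1 (1.29, standard error 0.57) had an adjusted limma p of 0.614. The opposite heat differences of the 2 labels enter the residual of this fit.

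The genes around this machinery were read the same way, from lists chosen with earlier results of these data known. For heat in BY4741, 118 of 127 genes of ribosomal proteins (median -2.00) and 23 of 24 ribosome assembly genes (median -3.67) were past 2-fold downward. Of all genes 18.8% were (median 0.13). On the hsp30Δ-labelled arrays the heat medians of these lists were 0.02 and 0.03, against 0.44 for the 51 genes and 0.01 over all genes. For the strain label at 40 °C the ribosomal protein genes had a median of -0.26, against 0.17 for the 51 genes and 0.00 over all genes. At 40 °C 104 of these 127 genes were lower, where 2694 of all 5430 genes were. None of these contrasts between lists was tested.

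Synthetases and factors of the mitochondria read differently in BY4741, with no test of the contrast. Of 24 such genes, 0 were at least 2-fold lower with heat in BY4741 and 3 were higher by that bound, GTF1, MEF2 and AIM23, with a median of 0.18, where 18.8% of all genes were lower and 18.9% higher. Between the strain labels at 30 °C, 2 were at least 2-fold lower and 4 higher (median 0.31), where 21.4% of all genes were lower and 23.2% higher. The higher counts of this list are thus no larger than those shares. MEF2, a mitochondrial elongation factor, read 10.93 on unheated BY4741 and 13.06 on the unheated hsp30Δ-labelled array. On the heated arrays it read 12.29 and 12.65.

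Of 13 translation regulators 3 were at least 2-fold lower with heat in BY4741, 0 higher, with a median of -0.24, where 18.8% of all genes were that much lower and 18.9% higher. GCN1, which activates the eIF2 kinase Gcn2, read 13.45 and 11.56 on BY4741 and 11.55 and 12.12 on the hsp30Δ-labelled arrays. CAF20, an inhibitor that binds eIF4E, read 13.49, 11.81, 11.20 and 11.30. The second eIF4E inhibitor, EAP1, read 12.20, 12.93, 12.25 and 12.32 and was within 2-fold in every comparison, as was GCN4, the transcription factor under translational control by eIF2 and eIF2B, at 14.91, 15.34, 15.22 and 15.33.

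Chaperones listed as marks of heat read higher with heat in BY4741, where the 51 genes read lower. All 8 were higher there, where 2975 of all 5430 genes were, with a median of 0.58 against 0.13 over all genes. Only 1 of the 8 was past 2-fold, where 18.9% of all genes were: SSA3, an inducible Hsp70, at 11.23 and 15.12. On the hsp30Δ-labelled arrays SSA3 read 15.57 and 15.43, and the median of the 8 was -0.03. CUR1, also on this list, read 10.67 and 10.97 on BY4741 and 14.61 on both hsp30Δ-labelled arrays. Its values followed the strain label more than the temperature. HSP104, SSA4, HSP26 and HSP42 read between 15.68 and 16.11 on heated BY4741, within 0.5 log2 units of its highest value, so that their differences and both medians may be too small. The unheated BY4741 array was thus the one with the lowest value of SSA3 and the highest values of most synthetase and factor genes. The part of that state of the array in the results above was not tested.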

How the data were processed

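Total RNA of 4 samples was hybridised to Affymetrix yeast arrays, 1 per group. The authors deposited log2 expression values, made with GCRMA and MAS5 per the submitters' processing notes, which give no versions and no order. The table holds 5802 probe sets, all used as deposited, and 0 columns of other samples. Symbols came from the platform annotation and were updated by gene ID. A gene was read from its probe set with the highest mean, and 5430 of 5436 genes exceeded background, 1.96, the 95th percentile of 32 fission yeast probe sets (median over arrays). Differences were taken with lower values set to that floor, while levels are given as deposited. The number of arrays limits the precision.

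The 4 single comparisons and the difference of heat responses have no test. The additive fit used limma 3.58.1 in R 4.3.3 (lmFit, eBayes, Benjamini-Hochberg over all genes, threshold 0.05). On simulated data for the heat term over 5430 genes with the fitted spread it recovered 91.6% of genes changed by 3 log2 units. The mean number of false calls there was 12.3. Among the 51 genes, the largest fitted heat term was -1.56 log2 units (KRS1) and the largest strain term -2.07 (TIF3). Recovery at these smaller sizes was not tested. Members, lists, alternatives and the naming rule (3 highest and 3 lowest genes of each role, genes past 2-fold in the smaller comparisons, genes over 1 log2 unit from their complex) were chosen with earlier results of these data known. Values of further genes were added for completeness after they were seen. In the ribosomal protein list, RPP1, a subunit of RNase P, was left out after the list was seen. The planned promoter motif search was not run, since no sequence was used here.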

Additional observations from a re-analysis of the deposited data

Results flagged for a closer look

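FRS1 and SES1 had heat differences of opposite sign under the 2 strain labels, each at least 2-fold. Without that limit, 45 of the 51 genes were lower with heat in BY4741 and higher on the hsp30Δ-labelled arrays. The rises of FRS1 and SES1 there, 1.15 and 1.05 log2 units, were only just past the limit. For FRS1, a subunit of the phenylalanyl-tRNA synthetase, the difference of the heat responses (labelled hsp30Δ minus BY4741) was 3.64 log2 units. For SES1, the seryl-tRNA synthetase, it was 2.45. KRS1, which was less than 2-fold higher with heat on the hsp30Δ-labelled arrays, had a larger value, 3.71. None of these differences was tested.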

How the results depend on the processing

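Quantile normalization, median centring, the mean of all probe sets, probe sets without suffix, no floor and leaving out genes near the top of the scale kept every count of the 51 genes within 1.5 times and every median on its side of 0. The median for heat in BY4741 ran from -1.41 (probe sets without suffix) to -1.19 (quantile normalization), and that for the strain label at 30 °C from -1.74 (median centring) to -1.60 (quantile normalization). The fold limit moved the small counts and the count of genes lower for heat in BY4741. That count was 41 with 1.5-fold, 32 with 2-fold and 20 with 3-fold. With 3-fold, 0 genes were higher for heat on the hsp30Δ-labelled arrays or for the strain label at 30 °C and at 40 °C. With 1.5-fold, 16 were higher and 2 lower for heat on the hsp30Δ-labelled arrays, and 6 higher and 2 lower for the strain label at 40 °C. No gene of the 51 that was past 2-fold changed sign under a scaling. In limma, 0 of 51 passed under each alternative run, with a smallest adjusted p for the strain label of 0.158 under quantile normalization and 0.671 with no filter on dim genes. Over all genes, the strain count of 11 became 0 under median centring or with no filter on dim genes, and 80 higher and 30 lower under quantile normalization. No paired analysis was possible because each group has 1 array and the labels give no pairing beyond the strain and temperature terms already in the limma fit. One array a group limits every value.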

Other observations

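Several translation genes outside the list have a close relative in it, and the pairs did not all match. HEF3, the second gene for eEF3, read 9.23 and 11.84 on BY4741 and 12.37 and 11.46 on the hsp30Δ-labelled arrays, 6.12-fold higher with heat in BY4741, where YEF3 was 3.71-fold lower. DBP1, a helicase related to DED1, read 10.29, 12.30, 12.51 and 11.46 on unheated and heated BY4741 and the unheated and heated hsp30Δ-labelled arrays. DBP1 was 4.04-fold higher with heat in BY4741 and 2.07-fold lower with heat in the hsp30Δ-labelled strain. Between the strain labels at 30 °C it was 4.66-fold higher. ANB1, the eIF5A gene used at low oxygen, read 10.34, 8.79, 10.18 and 10.34, and was low on heated BY4741 alone. GRS2, a second glycyl-tRNA synthetase gene, read 11.19, 11.97, 10.91 and 11.78, higher at 40 °C under both labels. In these pairs the probe sets carry no suffix for shared sequence. TEF2, one of the eEF1A genes, which does carry it, read between 15.65 and 15.79.

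RLI1, needed for ribosome recycling, read 12.72, 10.23, 9.56 and 10.45, and NEW1, a relative of eEF3, 13.01, 10.59, 10.88 and 11.22. YDR341C, the arginyl-tRNA synthetase, read 14.06, 11.78, 11.41 and 12.21, and YHR020W, the prolyl enzyme, 13.17, 11.71, 11.53 and 12.23. The first 3 were at least 2-fold below unheated BY4741 on each other array, and YHR020W on 2 of them. In all, 5 of 14 such genes were at least 2-fold lower and 2 higher with heat in BY4741, where 18.8% of all genes were lower and 18.9% higher.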
